A study of Mus musculus with 6 samples.

Results

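The sodium-potassium pump of muscle and its small regulators were followed in soleus, a slow postural muscle of the hindlimb, after an exchange of its main actin. The genes described are 4 of the beta family, Atp1b1 to Atp1b4, and 2 of the FXYD family, Fxyd1 and Fxyd6. Their rows (ATP1B1, ATP1B2, ATP1B3, ATP1B4, FXYD1 and FXYD6) were taken by name from the 34492 gene rows of a mouse whole-genome Illumina beadchip, on which each of the 6 had 1 row. The set was chosen by gene family with the signal differences between the genotypes on these same arrays already known, so differences between the genotypes in these 6 genes are described and not tested. Of the 6 members, 1 stood higher (Atp1b4) and 1 lower (Fxyd6) in muscle with exchanged actin, with no overlap between the arrays of each genotype after normalization. The other 4 overlapped. Fxyd6 overlapped too without normalization and with median scaling. Over all tested rows of the arrays, 12.7% had no overlap between the genotypes.

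Male mice aged 11 months of 2 genotypes were compared. In Coco/KO mice the skeletal muscle alpha-actin gene was knocked out and cardiac actin took its place, per the series title and labels. Wildtype mice carried the same strain designation, CBB6F1xFVB/n. Each group had 3 RNA samples, each pooled from soleus muscles of 2 different mice, and each sample was hybridised to 1 array of a single chip. The promoter that drives cardiac actin in these mice is not stated in the labels. The p-values and SE of genotype differences rest on the spread between pools. Standard errors over beads measure the spread within 1 array.

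The pump is a membrane enzyme that moves sodium out of the cell and potassium into it, and so restores the ion gradients that muscle action potentials run down. Its alpha subunit binds the ions and splits ATP. The beta subunit is a glycoprotein that brings alpha to the membrane and tunes its potassium affinity. In adult muscle beta-1 goes mainly with oxidative fibres and beta-2 with fast glycolytic fibres. FXYD proteins are single-span membrane proteins that bind the pump and change its affinity for ions. Atp1b4 is an exception in the family, since in placental mammals its product is a muscle protein of the inner nuclear membrane and not a pump subunit, and it binds the transcriptional coregulator Snw1.

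The sequences directly upstream of the annotated starts of Atp1b4 and Fxyd6 are shown because these are the members whose genotypes did not overlap. Each holds the 250 bases before the start, from RefSeq on build GRCm38.p6, plus strand, 5′ to 3′, with E-boxes in capitals. An E-box (CANNTG, the same on both strands) is the motif that myogenic factors such as MyoD can bind. The Atp1b4 stretch lies at chrX:38315872-38316121 and the Fxyd6 stretch at chr9:45369935-45370184, where the start used lies inside the annotated span of the gene.
Atp1b4: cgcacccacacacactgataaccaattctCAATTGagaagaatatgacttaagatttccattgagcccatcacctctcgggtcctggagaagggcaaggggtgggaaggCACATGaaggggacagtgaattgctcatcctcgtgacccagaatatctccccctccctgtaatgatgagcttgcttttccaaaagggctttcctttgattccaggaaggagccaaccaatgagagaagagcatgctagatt
Fxyd6: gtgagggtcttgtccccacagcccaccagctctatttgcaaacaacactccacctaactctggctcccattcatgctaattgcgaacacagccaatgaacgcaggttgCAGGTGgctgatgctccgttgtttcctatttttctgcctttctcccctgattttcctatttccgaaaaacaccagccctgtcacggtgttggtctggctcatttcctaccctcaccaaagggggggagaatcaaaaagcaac
The Atp1b4 stretch held 2 E-boxes, starting 221 and 141 bases before the start, and the Fxyd6 stretch held 1, starting 142 bases before it. An E-box was present in 66.2% of 32851 upstream stretches of this length, so holding one sets neither gene apart. Neither stretch held the MCAT motif (CATTCC, either strand, in 12.6% of stretches), a MEF2 motif (2.92%) or a CArG box, the motif of serum response factor (1.47%). These counts describe letters in a window and not binding.

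Each array had between 11606 and 13071 rows with a detection p under 0.05, the chance of such a signal from background, and the bead number behind a value had a median of 35 or 36. This p did not always follow the intensity, since 105 of 3184 rows with a mean intensity over 500 did not pass the detection filter. A gene called detected on no array is one with no array under this p, whatever its intensity. The labels were checked by the exchanged actins. With 3 arrays in each group, the log2 signal of Acta1 fell by 4.59 (SE 0.20, limma adjusted p = 2.96e-05) and that of Actc1 rose by 2.44 (SE 0.31, limma adjusted p = 0.0298) in Coco/KO muscle. The Actc1 call was lost in 9 of 15 alternative ways of processing, at limma adjusted p-values of 0.0623 to 0.360, while its difference stayed between 2.09 and 2.88. The array of Coco/KO pool 1 stood apart from the others. Its mean correlation with the other arrays was 0.970, against values from 0.975 to 0.977 for the rest, and its score on the first principal component was 34.4, against -15.5 to 5.48. Values without it are therefore given for each member. Of 12611 rows that passed the detection filter, 18 (0.143%) passed an adjusted p of 0.05, 8 higher (0.0634%) and 10 lower (0.0793%) in Coco/KO muscle, and 0 of the 6 members did (limma). At an unadjusted p under 0.05 there were 2 members of 6 and 8.19% of all tested rows. Nothing is read from these counts, because the comparison was known when the genes were chosen.

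**Figure D1:**
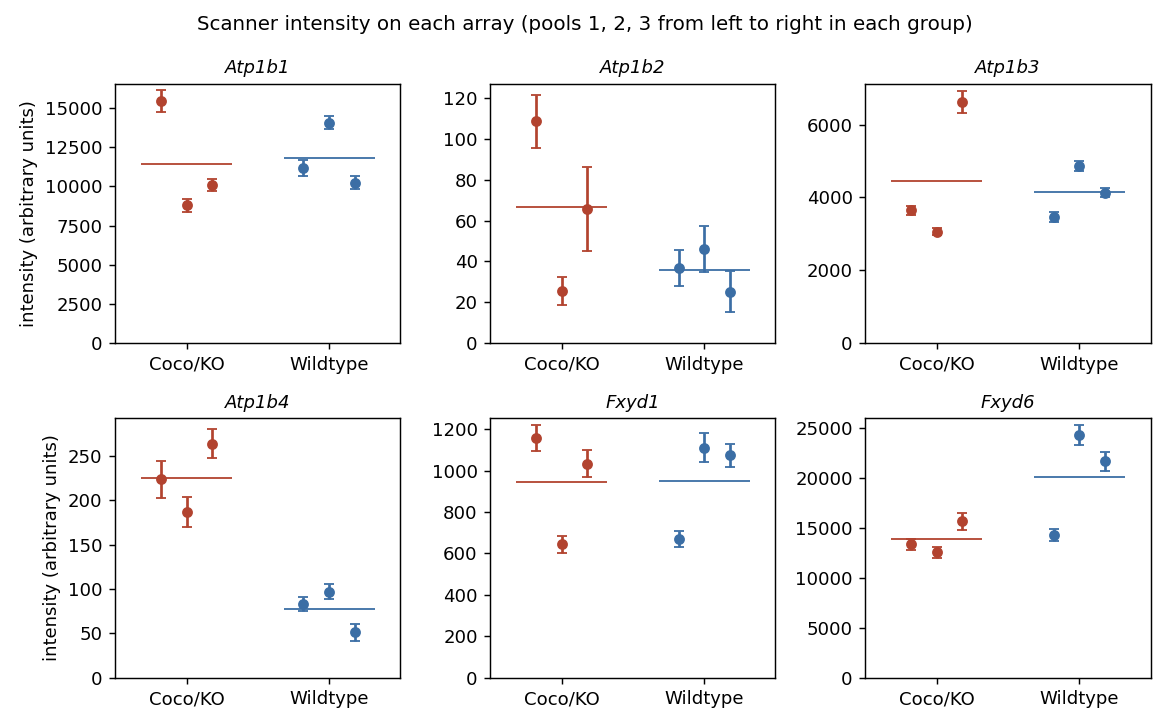
Background-subtracted scanner intensity (arbitrary units, axis from 0) of the 6 members on each array. Points are pools 1, 2 and 3 from left to right, error bars are the standard error over beads, and lines are group means. The 3 Coco/KO values of Atp1b4 (186.5 to 263.7) all lie above the 3 Wildtype values (51.2 to 96.9), while 1 Wildtype value of Fxyd6 (14272) lies within the Coco/KO range.

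Atp1b4, the muscle-restricted nuclear envelope member, lies on chromosome X (38316122 to 38336784, GRCm38.p6). Its intensity was 223.6, 186.5 and 263.7 on the 3 Coco/KO arrays and 83.0, 96.9 and 51.2 on the 3 Wildtype arrays. Every Coco/KO array was thus brighter than every Wildtype array, and the row was detected on all 6. The standard error over beads was at most 20.6 units on any array. The mean intensity was 224.6 ± 38.6 in Coco/KO and 77.0 ± 23.4 in Wildtype soleus (SD, n = 3 each), a ratio of 2.92. On the log2 scale after quantile normalization, which gives all arrays 1 distribution and here follows the addition of 58.7 units to every value, the means were 8.14 ± 0.13 and 7.05 ± 0.28 in Coco/KO and Wildtype muscle. The difference was 1.09 (SE 0.18), or 2.13-fold. The row sits low in the intensity range, so the added units pull its fold below the ratio of intensities. With a background modelled from the detection p-values the difference was 0.29, still with no overlap. It was 1.1 without the Coco/KO pool 1 array and between 0.94 and 1.23 with any 1 array left out. Among all tested rows, 0.642% had a larger absolute difference.

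Fxyd6 (chromosome 9, 45369470 to 45396159) encodes phosphohippolin, an FXYD protein best known from brain, where in rat it modulates the pump. Its intensity was 13371, 12553 and 15632 on the Coco/KO arrays and 14272, 24291 and 21662 on the Wildtype arrays. On this unnormalized scale the groups overlapped, since Wildtype pool 1 was dimmer than Coco/KO pool 3. After quantile normalization the log2 values were 13.74, 13.86 and 13.65 in Coco/KO muscle and 14.09, 14.41 and 14.28 in Wildtype muscle. They no longer overlapped, and a gap of 0.23 separated the nearest arrays. The difference was -0.51 (SE 0.15), so the signal was 1.42-fold lower in Coco/KO soleus. It was -0.50 without the Coco/KO pool 1 array and between -0.59 and -0.43 with any 1 array left out, and 6.79% of tested rows had a larger absolute difference. With median scaling, and with no normalization, the sign was kept (-0.49 and -0.50) but the groups overlapped. For comparison, 12.7% of tested rows had no overlap between genotypes, 6.13% higher and 6.61% lower in Coco/KO muscle, beside 2 of the 6 members.

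Atp1b1 (chromosome 1, 164437099 to 164458355), the beta subunit typical of slow oxidative fibres, had overlapping values in the genotypes. Its intensity was 15475, 8799 and 10099.5 on the Coco/KO arrays and 11172, 14078 and 10241 on the Wildtype arrays. The highest and the lowest value both came from Coco/KO pools. The log2 difference was -0.08 (SE 0.25). It moved to -0.34 without the Coco/KO pool 1 array and to 0.13 without the Coco/KO pool 3 array, so its sign depended on which pool was kept.

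Atp1b2 (chromosome 11, 69599728 to 69605978), the beta subunit of fast fibres and of glia, gave a signal not far above background. Its intensity was 108.8, 25.4 and 65.5 on the Coco/KO arrays and 36.7, 46.2 and 25 on the Wildtype arrays. Pool 1 and pool 3 of Coco/KO were the brightest, and pool 2 lay within the Wildtype range. The log2 difference was 0.34 (SE 0.23) and was 0.09 without the Coco/KO pool 1 array, 0.58 without the Coco/KO pool 2 array and 0.05 with modelled background. The standard error over beads was between 11.9% and 40.2% of the value, against 2.94% to 4.76% for Atp1b1.

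Atp1b3 (chromosome 9, 96332655 to 96364431) encodes the beta-3 subunit, found in many cell types. Its intensity was 3649, 3060 and 6631 on the Coco/KO arrays and 3464, 4857 and 4135 on the Wildtype arrays. Coco/KO pool 3 was the only array above the Wildtype range, and pool 2 the only one below it. The log2 difference was 0.02 (SE 0.18). It was 0.13 without the Coco/KO pool 1 array and -0.17 without the Coco/KO pool 3 array.

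Fxyd1 (chromosome 7, 31051678 to 31055873) encodes phospholemman, the main FXYD protein of heart and skeletal muscle, which restrains the pump until kinases phosphorylate it. Its intensity was 1159.5, 643.8 and 1033.8 on the Coco/KO arrays and 670.0, 1111.9 and 1074.6 on the Wildtype arrays. Each genotype had 1 dim and 2 bright pools, and the ranges nearly coincided. The mean intensities were 945.7 ± 268.9 and 952.2 ± 245.1 in Coco/KO and Wildtype muscle (SD, n = 3 each), and the log2 difference was -0.05 (SE 0.17). It was -0.18 without the Coco/KO pool 1 array and 0.03 without the Wildtype pool 3 array. The median difference of the 6 members was -0.02, against -0.000288 over all tested rows. With an SE between 0.15 and 0.25 for each member, differences of the size seen in the 4 overlapping members lie within the spread between pools. This does not show that their levels were equal.

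**Figure D2:**
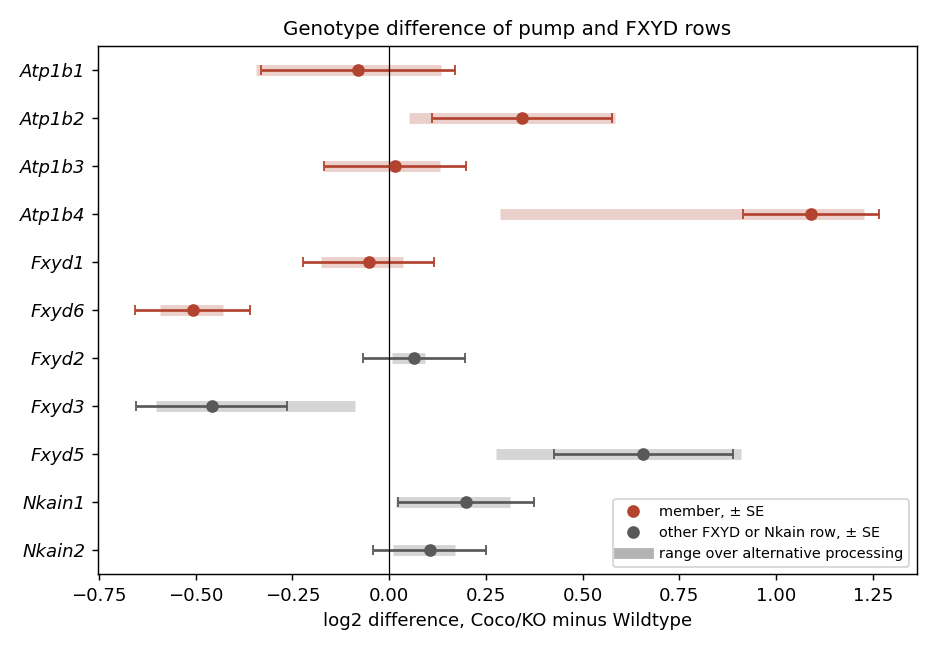
Log2 difference (Coco/KO minus Wildtype) of the 6 members, in red, and of further FXYD and Nkain rows that passed the detection filter, in grey. Points are the fitted differences, thin bars the SE, and pale bars the range over 15 alternative ways of processing. Atp1b4 lies highest at 1.09, with a pale bar that reaches down to 0.29, and Fxyd6 lies lowest at -0.51.

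Around the members, 13 further genes of the same complexes were looked up, of which 12 had a row and 7 passed the detection filter. Of these 7, 0 passed the threshold over all rows in limma, 2 had an unadjusted p under 0.05, and their median difference was 0.10 (0.04 to 0.15 with 1 array left out, 0.01 with modelled background).

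The other FXYD genes gave low signals or none. Fxyd5 encodes dysadherin, a regulator that also weakens cell adhesion and is expressed in epithelia and blood cells. Its intensity was 186.0, 246.7 and 473.9 in Coco/KO and 152.9, 154.5 and 167.7 in Wildtype pools. All 3 Coco/KO intensities were above all 3 Wildtype ones, but after normalization the groups overlapped, with a difference of 0.66 (SE 0.23, limma adjusted p = 0.482). Without the Coco/KO pool 1 array the Fxyd5 difference was 0.91, and with modelled background it was 0.28. Fxyd3 had 41.8, 58.5 and 104.3 in Coco/KO and 104.5, 97.3 and 148.6 in Wildtype pools, a difference of -0.46 (SE 0.20, limma adjusted p = 0.597) that shrank to -0.09 with modelled background. Fxyd2, the gamma subunit of the kidney pump, was near background with a difference of 0.06 (SE 0.13, and 0.01 with modelled background), and Fxyd4 and Fxyd7 were detected on no array. Of the Nkain genes, whose products interact with the pump's beta-1 subunit, Nkain1 (0.20, SE 0.18) and Nkain2 (0.10, SE 0.15) were tested, both close to background, with differences of 0.02 and 0.01 with modelled background.

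Channels and carriers that share the ion gradients with the pump were counted next. Of 19 such genes 14 were tested, 0 passed in limma, 1 had an unadjusted p under 0.05, and the median was -0.05 (-0.07 to 0.06 with 1 array left out, 0.16 over rows detected on all arrays). That one was Kcnj2, the inward rectifier potassium channel Kir2.1 that sets the resting potential, with a mean intensity of 89.6 ± 88.5 in Coco/KO and 201.8 ± 44.5 in Wildtype muscle (SD, n = 3 each). Its log2 difference was -0.98 (SE 0.38, limma adjusted p = 0.523), which became -0.46 without the Coco/KO pool 1 array and -0.21 with modelled background. Among 25 genes of hormonal and kinase control, 20 were tested, 7 of them higher and 13 lower, and 0 passed in limma. The median was -0.03 (-0.10 to 0.02 with 1 array left out). In limma 5 had an unadjusted p under 0.05, of which 2 were higher and the rest lower, at -0.33 to -1.07. The 2 of lowest p were the higher ones. They were Cav3, the muscle caveolin (0.63, SE 0.20, and 0.41 without the Coco/KO pool 2 array), and Prkca, a kinase that phosphorylates phospholemman (0.63, SE 0.21, and 0.09 with modelled background).

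Partners of the nuclear Atp1b4 protein were looked at as a group with other nuclear envelope and TGF-beta pathway genes. Of 15 genes 10 were tested and 0 passed in limma, 1 had an unadjusted p under 0.05, and their median was -0.07 (-0.10 to 0.02 with 1 array left out). Smad3, a transducer of TGF-beta signals, had a mean intensity of 795 ± 369 in Coco/KO and 1524 ± 392 in Wildtype muscle (SD, n = 3 each). Its difference was -1.0 (SE 0.23, limma adjusted p = 0.281). Without the Coco/KO pool 1 array it was -1.27 (limma adjusted p = 0.0362), the only 1 of 15 alternatives in which Smad3 passed the threshold. Tor1aip1, a protein of the inner nuclear membrane, followed at -0.35 (SE 0.16, and -0.08 with modelled background). Snw1, named here after its value was seen because its product binds the Atp1b4 protein, stood at 0.39 (SE 0.19) with overlapping groups. Smad7, a target gene reported for that pair, was detected on no array.

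Genes linked to denervation or regeneration of muscle, not all of which rise in those states, were counted because Atp1b4 is known to be most abundant around birth. Of 14 genes 9 were tested, 8 of them with a positive difference, and the median was 0.23. That median was 0.40 without the Wildtype pool 1 array, 0.36 without the Coco/KO pool 3 array and 0.08 with modelled background. In limma 4 of these genes had an unadjusted p under 0.05, among them the 1 lower gene (-0.58, SE 0.23). The smallest positive difference was 0.04 (SE 0.46), so the list did not move as a whole. The untested genes, myogenic factors among them, had overlapping groups. Their mean intensities were at most 34.6 in Coco/KO and 29.3 in Wildtype muscle, and 1 was detected on no array. Myh3, embryonic myosin heavy chain, rose by 2.77 on the log2 scale (SE 0.28, limma adjusted p = 0.0124) and was the 1 member past the threshold. That call was lost without Wildtype pool 1 (adjusted p = 0.0641), without Wildtype pool 3 (0.0628) and with modelled background (0.351), at differences of 2.66, 2.75 and 2.94.

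The genes whose profile over the 6 arrays came closest to that of Atp1b4 were sought among 4790 named genes detected on all arrays. Closeness was the root mean square distance between log2 profiles after each was centred on its own mean. The nearest were Cuzd1 at a distance of 0.13 and Mllt11 at 0.14, against a spread of 0.57 of Atp1b4 about its own mean. Their genotype differences were 0.91 (SE 0.16) and 0.92 (SE 0.18), and with modelled background 0.21 and 1.06. For Fxyd6, with a spread of 0.28, the nearest were Smpd1 (0.09), Tle1 (0.09) and Arv1 (0.09), with differences of -0.38, -0.44 and -0.65. These 3 rows gave mean intensities of 34.3 to 131.1 in Coco/KO and 92.8 to 194.6 in Wildtype muscle, and with modelled background their differences were -0.11, -0.12 and -0.10. Choosing by profile fixes the direction of these differences, so they carry no test.

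**Figure D3:**
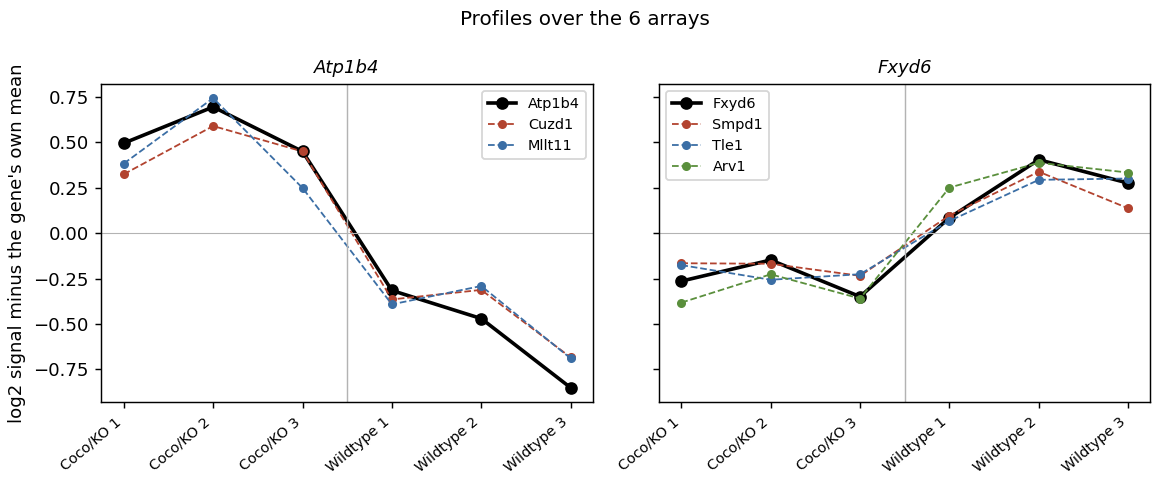
Log2 signal of Atp1b4 (left) and Fxyd6 (right) on the 6 arrays, each gene centred on its own mean, with the nearest genes named in the text as dashed lines. For Atp1b4 the 3 Coco/KO arrays lie above 0 and the 3 Wildtype arrays below it, and the reverse holds for Fxyd6.

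Whole muscle holds other cells, and in such samples fewer cells of a type cannot be told apart from less RNA per cell. Sums are of unnormalized intensity over all rows of a list, untested rows included, and medians over the tested rows. The mean intensity of a whole array ranged from 330 (Coco/KO pool 2) to 470 (Coco/KO pool 3), and the sums carry this difference in brightness. The summed signals of fibre type markers, given beside the beta-1 and beta-2 values, overlapped between the genotypes. Of 11 slow fibre genes tested 9 were higher, with a median of 0.05 (-0.02 to 0.13 with 1 array left out) and summed intensities of 236920 to 270142 in Coco/KO and 235773 to 278684 in Wildtype pools. The slow fibre gene farthest from 0 was Tnni1 (0.91). Of 11 fast fibre genes 8 were lower, with a median of -0.14 (-0.23 to -0.04 with 1 array left out) and sums of 130930 to 183720 in Coco/KO and 160070 to 203930 in Wildtype pools, with Myh1 (-1.17, and -0.77 without the Wildtype pool 2 array) farthest. The myosins and troponins of slow fibres that define soleus were detected on all arrays.

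Macrophage and leukocyte markers, cells in which Atp1b3 and Fxyd5 are also expressed, were higher in 13 of 14 genes tested, with a median of 0.67 and sums of 4930 to 16015 in Coco/KO and 3592 to 4777 in Wildtype pools. On this unnormalized scale the sums of the genotypes did not overlap, but the nearest were close (4930 in Coco/KO and 4777 in Wildtype pools). Those over the 14 tested rows alone did not overlap either (4409 to 14251 in Coco/KO and 3364 to 4198 in Wildtype pools). The median was 0.37 with modelled background and 0.36 without the Coco/KO pool 3 array. Ptprc, a defining leukocyte gene, was detected on no array. Nerve and Schwann cell markers had a median of -0.06 over 6 tested genes (-0.14 to 0.04 with 1 array left out) and sums of 1328 to 2920 in Coco/KO and 1983.5 to 2963 in Wildtype pools. Their defining genes Sox10, Prx, Nefl and Nefm were detected on no array, although glia and neurons are known sources of Atp1b2 and Fxyd6. Adipocyte markers were lower in 6 of 7 genes, with a median of -0.76 (-1.08 to -0.41 with 1 array left out, -0.29 with modelled background) and sums of 26934 to 36200 in Coco/KO and 28905 to 60555 in Wildtype pools, and Plin1 was detected on none. Over the 7 tested adipocyte rows alone the sums were 22167 to 31108 in Coco/KO and 25496 to 51072 in Wildtype pools. A large part of both sums came from the brightest row of the list, with a difference of -0.10 (SE 0.14). The mean intensity of that row was 16772 in Coco/KO and 18352 in Wildtype muscle.

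The medians of the remaining marker lists lay between -0.25 and 0.15. Endothelial genes had a median of -0.14 (6 of 8 lower, sums of 3709 to 6909 in Coco/KO and 5878 to 7844 in Wildtype pools), which was -0.29 without the Coco/KO pool 1 array, -0.26 without the Wildtype pool 3 array and -0.02 without the Wildtype pool 1 array. Smooth muscle and pericyte genes had a median of -0.23 (6 of 7 lower, 6164 to 9534 and 7633 to 11362 in Coco/KO and Wildtype pools), which was -0.40 without the Wildtype pool 3 array and -0.10 with modelled background. The 1 higher gene of this list (0.08, SE 0.17) made up a sizeable part of these sums. Its mean intensity was 2483 in Coco/KO and 2343 in Wildtype muscle. Fibroblast and tendon genes had a median of 0.15 (6 of 11 higher, 14581 to 24500.0 and 17775 to 25205 in Coco/KO and Wildtype pools, Col1a1 detected on none), which was -0.17 without the Coco/KO pool 1 array and -0.21 without the Wildtype pool 2 array. Red blood cell genes had a median of -0.25 (4 of 5 lower, 79718 to 92582 and 82889 to 106022 in Coco/KO and Wildtype pools), which was -0.07 without the Coco/KO pool 1 array and -0.62 without the Coco/KO pool 2 array. No gene of the 9 marker lists passed the threshold over all rows. Whether the share of these cells plays a part in the values of Atp1b4, Fxyd6 or the other members was not tested.

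**Figure D4:**
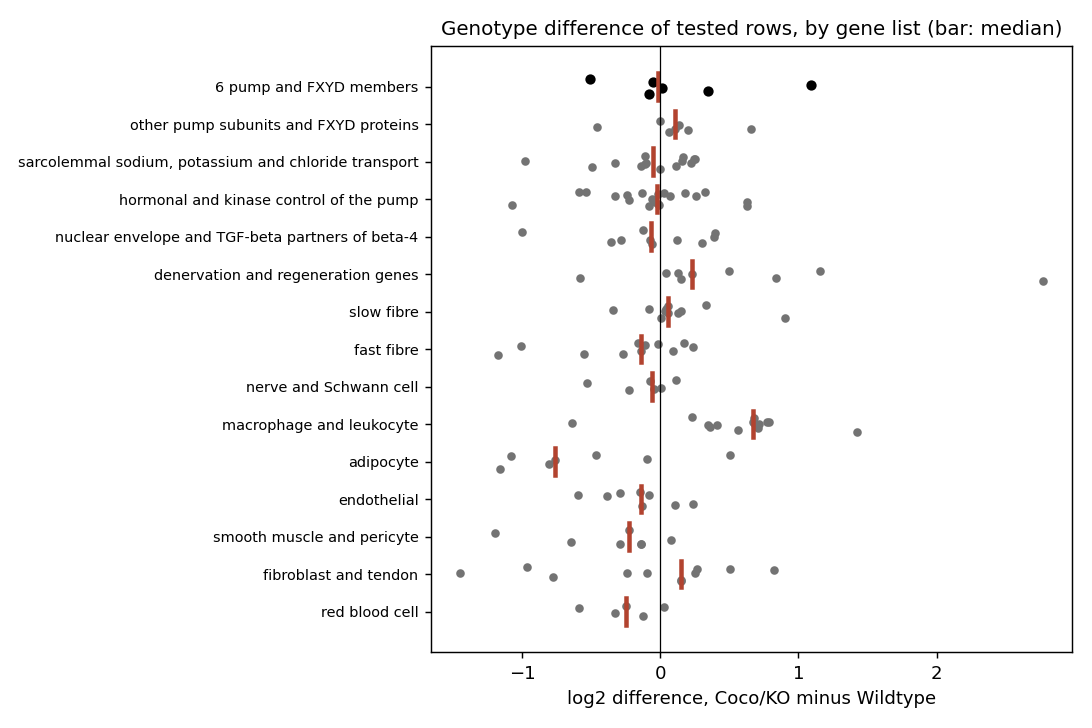
Log2 difference (Coco/KO minus Wildtype) of every tested row of the 6 members (black) and of each companion or marker list (grey), with the median of each list as a red bar. The macrophage list lies to the right with a median of 0.67 and the adipocyte list to the left with a median of -0.76, while the members scatter about a median of -0.02.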

How the data were processed

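RNA of 6 soleus samples was measured on 6 arrays of 1 MouseWG-6 chip. The deposited intensity values were exported with BeadStudio 3.2.6 without normalization, per the file headers, and values below 0 show that a background was subtracted. Each comes with the SD and number of beads. The deposited detection score is a fraction, taken as 1 minus the detection p-value. The authors' deposited log2 value table (46632 probes, array medians 7.75 to 7.76) names no genes and was not used. BeadStudio and limma are named in the submitters' processing notes.

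A constant of 42.7 (lowest value 1) and an offset of 16 were added, and log2 values were quantile normalized. The 12611 of 34492 rows whose detection p was below 0.05 on 3 or more arrays were fitted on genotype with limma 3.58.1 (R 4.3.3), with Benjamini-Hochberg adjustment over all rows. The SE is that of limma's moderated variance. Plots used matplotlib 3.10.9 in Python 3.11.15. The fit was also run on simulated data in which the noise of each value was drawn independently, and no result given here rests on that run.

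The members and gene lists were chosen with earlier results of these data known. Named genes were all members, all tested rows of the pump list, those past the threshold or the 2 of lowest p in other lists, markers farthest from 0 and the 3 nearest profiles. List genes without their own symbol on the array were matched by a RefSeq synonym (GRCm38.p6). The number of arrays limits the precision. The replicate numbers name different pools and were not used as pairs. Some genes that this rule or the lists cover are not reported here by name, and counts and medians of the lists include them. Alternatives covered normalization, offset, background, filter, variance model, array weights, a replicate block and each array left out.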

Additional observations from a re-analysis of the deposited data

How the results depend on the processing

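The number of rows past the threshold depended on the processing. Against 18 rows in the main processing it was 5 with median scaling, 5 without normalization between arrays, 9 with an offset of 50, 2 with modelled background and 9 with rows detected on all 6 arrays. It ranged from 5 to 29 with 1 array left out, highest without Coco/KO pool 1. None of the 6 members passed in any of these or in the other alternatives run (0 of 6 in limma each time). Of the members' differences, 1 moved by more than the spread between pools, that of Atp1b4 with modelled background (0.29), a model fitted to intensities from which a background had already been subtracted. The cause was not tested. The values of all 6 arrays change in 4 of the 15 alternatives (scaling, no normalization, offset and background). Atp1b4 stood higher with no overlap in 4 of these 4, and Fxyd6 lower with no overlap in 2 of them. With the replicate number as a block, 13 rows passed, and the differences of Atp1b4 and Fxyd6 stayed at 1.09 and -0.51 by construction. Same-numbered pools deviated from their group means with correlations of -0.04, -0.29 and 0.09, and differently numbered pools with -0.21 to 0.27. Deviations from a mean of 3 arrays depend on each other, so these values cannot decide whether same-numbered pools were handled together. Of 822 values of other genes and lists, 783 kept their call or moved by less than the spread between pools, 26 moved further, 15 of them with modelled background, 12 lost a call, 1 gained one and 0 reversed. The members that lie near background, Atp1b2 above all, are limited by signal over background. The authors' value table was planned as an alternative and was not run, since its probes could not be paired with genes here.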

Other observations

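The detection score did not always follow the intensity. Of 3184 rows with a mean intensity over 500, 105 did not pass the detection filter, and 34 of these had no array with a detection p under 0.05. One of the rows left untested for this reason carries the older symbol of Sgk1, the kinase that raises sodium transport in response to hormones and stress. Its mean intensity was 2209 ± 1199 in Coco/KO and 1351 ± 346 in Wildtype muscle (SD, n = 3 each), with overlapping groups and detection on 0 of 6 arrays. All 6 members of the pump and FXYD set were detected on every array, so this filter took none of them away.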
